A study of Mus musculus with 3 samples.

Results

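Collagen chains are the polypeptides that wind in threes into the triple helices of the extracellular matrix. Every gene whose symbol has the form Col, number, a, number was taken, which gave 44 genes, and 42 of them had at least 1 probe on the array, of 20017 gene symbols and 32540 features in all. Col6a3 and Col12a1 had no matched probe. The 44 genes were sorted by collagen class: 11 fibrillar chains (types I, II, III, V, XI, XXIV and XXVII), 6 basement membrane chains (type IV), 9 FACIT chains (fibril-associated collagens with interrupted triple helices), and 18 other chains, which form beaded filaments, hexagonal networks, anchoring fibrils, multiplexins and transmembrane collagens. The 42 genes with a probe were read by 61 probes: 11 fibrillar, 6 basement membrane, 8 FACIT and 17 other chains.

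RNA was measured in primary mouse embryonic fibroblasts (MEFs) of embryonic day 10.0 (E10.0) and C57BL/6J background. All 3 groups descended from one Rb-/-;ATM-/- culture, so the controls also lack both the retinoblastoma protein and the ATM kinase. The groups were those cells given the empty vector, the same cells given a vector expressing DNMT1 shRNA (D4; genotype label Rb-/-;ATM-/-;DNMT1-depleted), and the same cells given a vector expressing ATM (WT8S; genotype label Rb-/-;ATM-/-;ATM-reconstituted). Each group was selected with puromycin at 4 µg/ml over 3 days, grown for 4 more days, and read by 1 Cy3-labelled Agilent 1-colour array. The labels name neither the promoter of the vectors, nor how many embryos gave the cells, nor any cells without the Rb and ATM deletions among these groups.

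DNMT1 copies methyl groups onto the new DNA strand at CpG dinucleotides after replication, and the series asks how ATM and the retinoblastoma protein bear on DNMT1 and on DNA methylation. Fibroblasts are the main makers of fibrillar collagen. Their procollagen chains are hydroxylated, folded with chaperones in the endoplasmic reticulum, trimmed outside the cell and cross-linked into fibrils. Chains combine within a collagen type, and type I is usually built from Col1a1 and Col1a2. The type IV genes lie side by side in the genome as the pairs Col4a1 with Col4a2, Col4a3 with Col4a4, and Col4a5 with Col4a6. These are pairs of neighbouring genes and not the sets of chains that form a triple helix.

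Each group had 1 array and no replicate, so the differences below come without p-values, and their precision is limited by how few arrays there were. Ratios are differences in log2 processed signal, each array scaled by its 75th percentile. "Called" means at least 2-fold different, either measured on both arrays or by a bound where a gene was not well above background on 1 of them. For a bound, the dim side was set to the faintest reading that the scanner software still marked as well above background there, or to the gene's own reading if that was higher; bounds are written "at least". The error after ± is the scanner software's own estimate for the probe, about 0.20 for bright probes, and says nothing of the spread between cultures. As a second yardstick, probes of the same gene differed with a pooled SD of 0.21 (log2) for Dnmt1 shRNA against empty vector, 0.33 for ATM vector against empty vector and 0.38 for ATM vector against Dnmt1 shRNA. The first 2 groups shared slide 1 (scan 1) while the ATM vector group was hybridised on slide 2 (scan 2), so slide and group cannot be told apart for ATM. The array labelled ATM vector also stood apart on its spike-in controls: their 99th percentile was 11194 units, against 78130 with the empty vector and 71938 with Dnmt1 shRNA, while the 75th percentile of all signals was alike, at 2312, 2061 and 2101 units. The part of this in the ATM ratios was not tested. Between 55.0% and 59.6% of 39404 probes were well above background, and the lowest such signal was 37.8, 25.1 and 32.7 units on the empty-vector, Dnmt1 shRNA and ATM vector arrays. Dnmt1 itself read 4908, 956 and 3169 units on the same arrays, 4.58-fold lower with the shRNA. The targets of the deletions and of the ATM vector did not follow the labels: 1 Atm probe read 430, 366 and 409 units, well above background in cells labelled ATM-/- and not higher with the ATM vector, the other Atm probe was dim on every array, and Rb1 read 541, 782 and 460 units. Where these probes lie relative to the deleted parts and to the vector is not known here, so they check neither, and "ATM vector" stands for the array labelled so throughout. Of 14 fibroblast markers with a probe, 13, 14 and 14 were well above background on the empty-vector, Dnmt1 shRNA and ATM vector arrays.

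The fibroblast markers themselves differed between the arrays. With Dnmt1 shRNA 3 of 14 were called higher, the surface antigen Thy1 (36.2-fold or more, a bound), the proteoglycan Lum (2.49-fold) and the growth factor receptor Pdgfra (2.26-fold), 0 were called lower, and their median was 0.28. With the ATM vector 3 of 14 (21.4%) were called lower, Lum (9.23-fold), the transcription factor Twist2 (8.33-fold) and the proteoglycan Dcn (2.15-fold), 1 was called higher, S100a4 (3.38-fold), and the median was 0.09. Over all features, 4.79% were called higher and 1.81% lower with Dnmt1 shRNA. With the ATM vector these shares were 6.95% and 6.36%. The part of the fibroblast markers in the collagen values was not tested.

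Between 25 and 31 of the 42 chains were well above background on an array: 25 with the empty vector, 31 with Dnmt1 shRNA and 26 with the ATM vector. There were 23 chains detected on all 3 arrays. The 10 chains detected on none were Col4a3, Col6a5, Col6a6, Col11a2, Col13a1, Col19a1, Col24a1, Col25a1, Col26a1 and Col27a1. Detection was the same on every array for the fibrillar chains (8 of 11) and the basement membrane chains (5 of 6). It differed for the FACIT chains, with 5, 7 and 5 of 8, and for the other chains, with 7, 11 and 8 of 17.

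With Dnmt1 shRNA, 5 collagen chains were called higher than with the empty vector and 0 were called lower, among the 31 chains that either of these arrays detected. The 5 were the fibrillar chain Col5a3, the FACIT chain Col20a1, the multiplexins Col15a1 and Col18a1, and the hexagonal network chain Col10a1. Over all 19359 features tested, 4.79% were called higher and 1.81% lower, against 16.1% and 0% of the chains. The median log2 ratio of the 31 chains was 0.27, with a range from -0.44 to 2.18, while the median of all features was -0.01. The split of calls over all features leans on the scaling: it was 928 higher and 351 lower with the 75th percentile, but 673 and 550 when each array was centred on its median, which moved the median of all features to -0.25 and that of the chains to 0.037. Centring shifts every feature by the same constant, so the gap between the 2 medians is the same by construction.

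Col18a1, whose carboxy-terminal fragment is endostatin, had the largest difference among the chains measured on both of these arrays; chains with a bound cannot be ranked against it. Its first probe read 1236 units with the empty vector, 5340 with Dnmt1 shRNA and 1811 with the ATM vector. Its other probe read 1688, 6359 and 2277 units. Both probes were highest on the Dnmt1 shRNA array, by 2.28 ± 0.20 and 2.08 ± 0.20 (log2), which gave 4.52-fold for the gene. In all 12 settings computed for it the difference stayed between 1.94 and 2.23. Col15a1, the other multiplexin and a proteoglycan of basement membrane zones, was dim throughout. Its brightest probe read 46.9 units with the empty vector, 110 with Dnmt1 shRNA and 92.1 with the ATM vector. The remaining probes read 35.01 and 12.2 units with the empty vector, neither well above background, against 58.3 and 42.4 with Dnmt1 shRNA. The gene was 2.67-fold higher with Dnmt1 shRNA over the 3 probes, and the probe well above background on both arrays gave 1.39 ± 0.33. Col15a1 fell short of 2-fold, at 0.56, under the normexp background correction.

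Col5a3, a minor chain of the type V collagen that co-assembles with type I fibrils, read 1710 units with the empty vector, 3527 with Dnmt1 shRNA and 7604 with the ATM vector. It was lowest on the empty-vector array and was 2.31-fold higher with Dnmt1 shRNA (1.21 ± 0.20). The other type V chains did not move with it: Col5a1 differed by 0.06 and Col5a2 by 0.32, both under 2-fold. Col20a1, a FACIT chain, read 195, 369 and 65.0 units by 1 probe and 119, 235 and 58.3 by the other, in the order empty vector, Dnmt1 shRNA, ATM vector. Both probes were highest with Dnmt1 shRNA and lowest with the ATM vector, and the gene was 2.16-fold higher with Dnmt1 shRNA. Col20a1 was just past the 2-fold line and fell short of it, at 0.75 to 0.99, under 4 other normalizations. Col10a1, the short-chain collagen of hypertrophic cartilage, read 78.9 units with Dnmt1 shRNA and 7.86 with the empty vector, where it was not well above background. It was therefore at least 2.34-fold higher with Dnmt1 shRNA. Centring each array on its median put Col5a3 at 0.97, just under 2-fold, and lowered the bound of Col10a1 to 0.99, so that at least 2-fold was no longer shown.

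The cartilage marker list was also higher on the Dnmt1 shRNA array: its 9 genes with a probe summed to 6240 units with the empty vector, 9041 with Dnmt1 shRNA and 5062 with the ATM vector, with 4, 5 and 5 of the 9 well above background. Comp, a cartilage matrix protein, read 256, 1203 and 444 units, and Matn1, Hapln1, Cnmd and Snorc were well above background on no array. The part of such cells in the difference of Col10a1 was not tested. In bulk RNA, fewer cells of a type and less RNA per cell cannot be told apart.

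The other 21 chains measured on both arrays were under 2-fold different with Dnmt1 shRNA. Col1a1, read at 106158 units with the empty vector, 103799 with Dnmt1 shRNA and 112671 with the ATM vector, differed by 0.13 ± 0.20, and Col1a2, at 308668, 268879 and 442242 units, by -0.03 ± 0.20. Col3a1, the type III chain of skin and vessels, read 128426, 100161 and 168993 units and differed by -0.19 ± 0.20. These 3 bulk fibroblast collagens were level between the empty-vector and Dnmt1 shRNA arrays within the scanner error, and Col1a1 changed sign, to -0.10, with median centring. The lowest fibrillar ratio was that of Col11a1, which read 5108 and 3361 units (-0.44 ± 0.20). Below the 2-fold line, the type VI chains Col6a1 (0.62 ± 0.20) and Col6a2 (0.76), neighbours on chromosome 10 that build beaded microfilaments, and the FACIT chain Col14a1 (0.86) were all higher with Dnmt1 shRNA. There were 6 chains detected with Dnmt1 shRNA and not with the empty vector: Col6a4, Col8a2, Col9a3, Col10a1, Col17a1 and Col22a1. Of these Col10a1 alone had a bound of 2-fold, and the others had bounds of 0 to 0.78 (log2), on an array whose lowest signal well above background was itself lower. Col17a1 belongs to the hemidesmosomes of epithelium, and 3 of 6 tested epithelial markers were called higher with Dnmt1 shRNA: the keratins Krt8 (at least 22.0-fold), Krt18 (at least 39.8-fold) and Krt14 (4.24-fold). The share of all features called higher was 4.79%. Of the 8 epithelial markers with a probe, 4, 6 and 4 were well above background and Epcam on no array, and they summed to 3822, 5684 and 8227 units, mostly from Trp63 and, with the ATM vector, from Krt14 (4491 units). The part of such cells was not tested.

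By class, the fibrillar chains had a median ratio of 0.10 with Dnmt1 shRNA and 1 of 8 tested was called higher. The basement membrane chains had a median of 0.07 with 0 of 5 called, the FACIT chains 0.30 with 1 of 7, and the other chains 0.62 with 3 of 11. Over all features 4.79% were called higher and 1.81% lower, and the median was -0.01. With so few chains in a class, 1 call more or less changes its share widely. The FACIT and other medians of the chains include bounds, whose sign is set by the array that detected the chain. Over the chains measured on both arrays alone these class medians were 0.25 and 0.68. No chain of any class was called lower at the main setting, although the brighter probe of Col9a1 was lower by itself, as given with type IX collagen.

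**Figure D1:**
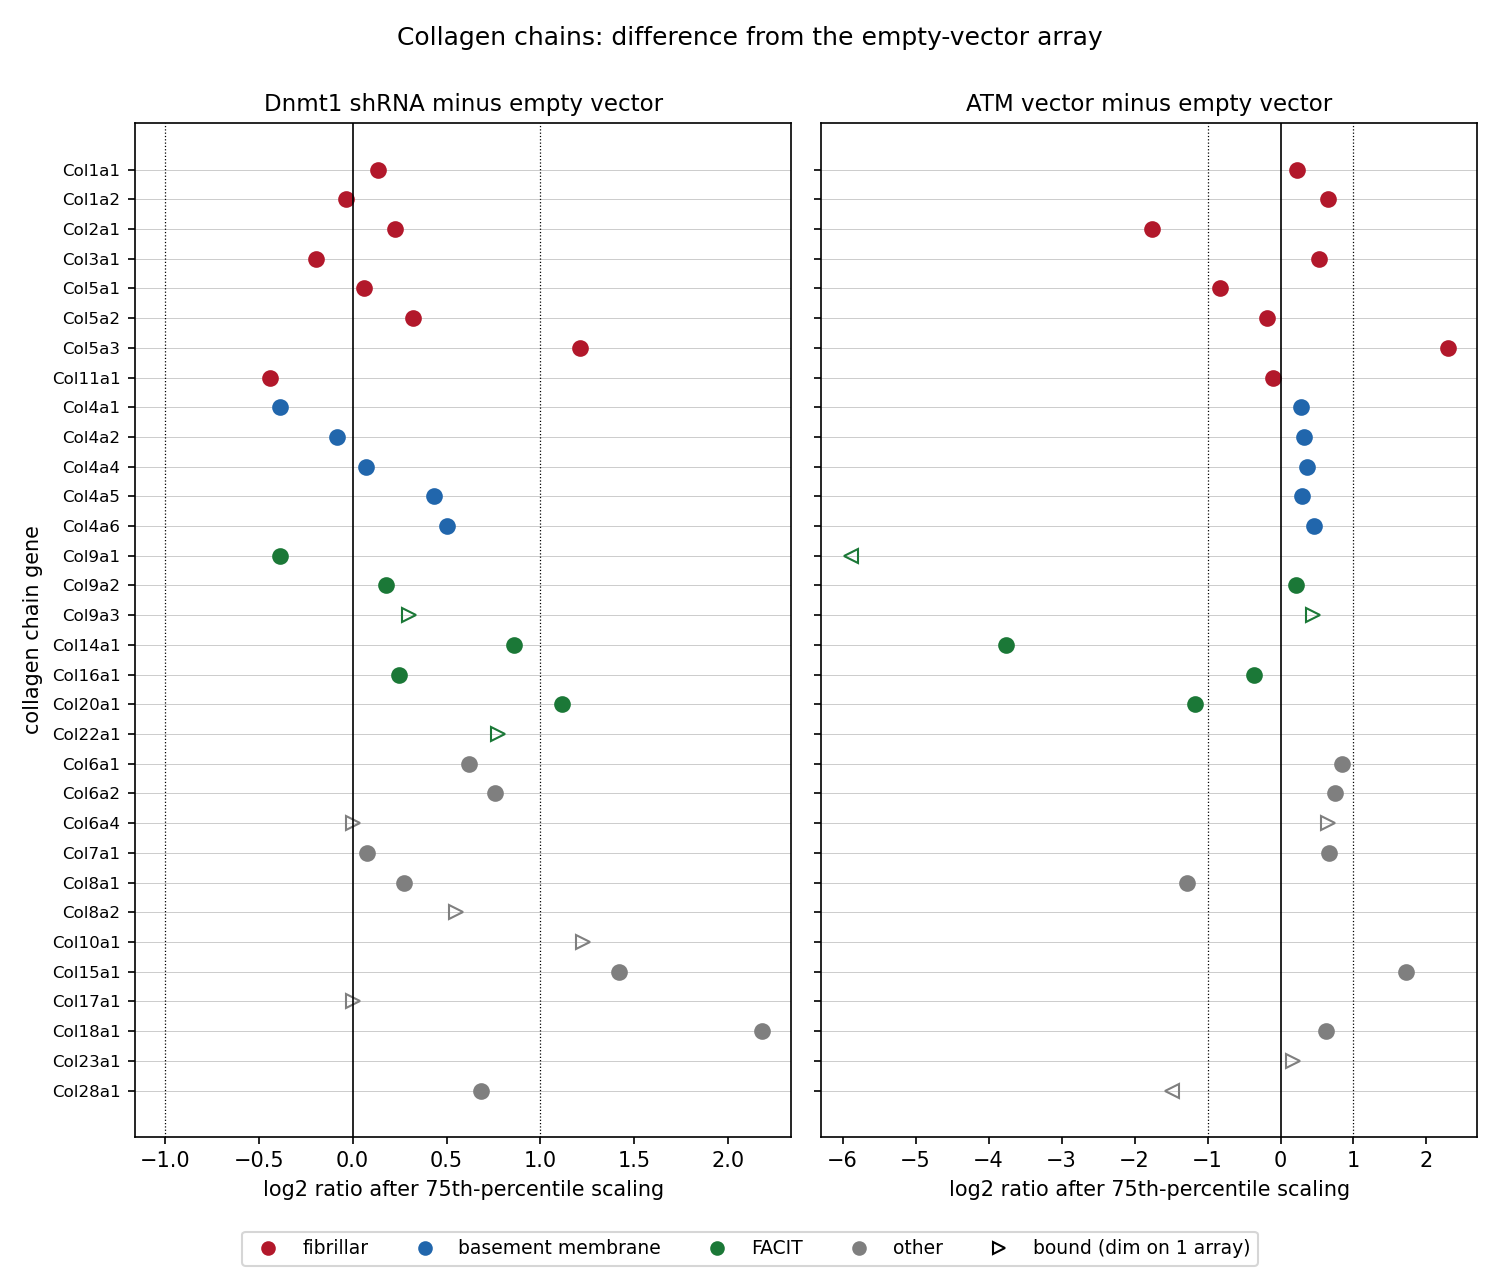
Log2 ratio against the empty vector (horizontal axis, on a different scale in each panel) of each tested collagen chain (rows, coloured by class), for Dnmt1 shRNA and for the ATM vector; open triangles are bounds and dotted lines mark 2-fold. With Dnmt1 shRNA the 5 called chains all lie above the 2-fold line, led by Col18a1 at 2.18, while with the ATM vector Col9a1 (-5.89) and Col14a1 (-3.76) lie far below.

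DNMT1 acts on CpG dinucleotides, so the bases before the annotated start of the called chains are shown. RefSeq (GRCm38.p6) gave a promoter window for 35 of the 44 chains, 38 windows in all, and the 250 bases upstream of the start were used. Methylation of these bases was not measured by these arrays. The windows of the 5 chains called higher with Dnmt1 shRNA are printed first, 5′ to 3′ on the strand of the gene, with each CpG in capitals; Col18a1 has a pair of annotated starts.
Col5a3 (chr9:20815068-20815317, minus strand): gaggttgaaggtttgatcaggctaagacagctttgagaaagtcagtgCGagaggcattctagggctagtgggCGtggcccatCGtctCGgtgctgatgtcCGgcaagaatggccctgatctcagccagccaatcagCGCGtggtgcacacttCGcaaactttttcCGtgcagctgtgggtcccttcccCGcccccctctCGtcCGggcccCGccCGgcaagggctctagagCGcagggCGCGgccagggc
Col10a1 (chr10:34389731-34389980, plus strand): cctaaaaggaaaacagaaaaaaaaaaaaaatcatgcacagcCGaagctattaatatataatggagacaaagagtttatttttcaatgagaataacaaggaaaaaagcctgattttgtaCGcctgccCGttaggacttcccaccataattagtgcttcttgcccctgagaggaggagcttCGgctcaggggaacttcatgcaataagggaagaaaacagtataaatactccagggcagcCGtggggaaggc
Col15a1 (chr4:47207762-47208011, plus strand): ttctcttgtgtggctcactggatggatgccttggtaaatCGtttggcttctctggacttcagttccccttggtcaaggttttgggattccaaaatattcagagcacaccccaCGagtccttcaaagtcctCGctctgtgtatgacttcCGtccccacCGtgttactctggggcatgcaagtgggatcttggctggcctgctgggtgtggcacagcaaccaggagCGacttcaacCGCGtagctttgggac
Col18a1, distal start (chr10:77166531-77166780, minus strand): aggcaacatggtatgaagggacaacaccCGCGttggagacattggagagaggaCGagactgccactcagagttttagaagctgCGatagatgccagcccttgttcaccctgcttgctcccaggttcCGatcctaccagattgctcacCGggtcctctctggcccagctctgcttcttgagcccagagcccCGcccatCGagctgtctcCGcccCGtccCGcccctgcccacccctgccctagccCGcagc
Col18a1, internal start (chr10:77113706-77113955, minus strand): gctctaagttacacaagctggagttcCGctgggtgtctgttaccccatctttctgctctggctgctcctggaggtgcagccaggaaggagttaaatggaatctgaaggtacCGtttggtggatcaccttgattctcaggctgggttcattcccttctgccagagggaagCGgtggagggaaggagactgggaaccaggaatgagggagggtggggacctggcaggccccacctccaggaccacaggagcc
Col20a1 (chr2:180986285-180986534, plus strand): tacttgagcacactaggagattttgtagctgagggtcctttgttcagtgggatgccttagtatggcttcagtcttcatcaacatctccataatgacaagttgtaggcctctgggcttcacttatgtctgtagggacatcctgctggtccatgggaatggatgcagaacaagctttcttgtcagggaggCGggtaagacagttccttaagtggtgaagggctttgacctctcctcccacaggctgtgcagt
For contrast, the windows of 2 bulk fibroblast chains that were under 2-fold different with Dnmt1 shRNA are given, Col1a2 with 11 CpGs and Col3a1 with 0.
Col1a2 (chr6:4505368-4505617, plus strand): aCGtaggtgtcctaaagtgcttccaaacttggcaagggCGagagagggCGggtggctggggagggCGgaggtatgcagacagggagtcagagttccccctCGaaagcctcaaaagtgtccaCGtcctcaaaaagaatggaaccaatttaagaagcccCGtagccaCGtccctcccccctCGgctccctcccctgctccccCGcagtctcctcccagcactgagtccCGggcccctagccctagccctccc
Col3a1 (chr1:45311288-45311537, plus strand): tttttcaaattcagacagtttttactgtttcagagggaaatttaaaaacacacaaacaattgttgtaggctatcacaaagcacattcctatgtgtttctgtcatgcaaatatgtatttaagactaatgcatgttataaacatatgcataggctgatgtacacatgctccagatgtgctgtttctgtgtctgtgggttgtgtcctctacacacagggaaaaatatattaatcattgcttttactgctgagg

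The called windows held unlike numbers of CpGs. Col5a3 had 17 and Col20a1 had 1, Col15a1 had 8, Col10a1 had 5, and the Col18a1 windows had 12 and 3. The observed-to-expected ratio, the CpG count over the count that the C and G content of the window would give, was 0.69 for Col5a3, 0.07 for Col20a1 and 0.52 for the richer Col18a1 window. Taking the window with the highest ratio for each gene, 1 of the 5 called chains reached 0.6, and so did 5 of 20 chains that were tested and not called. Over all 35 chains the share was 31.4%. Over all 32851 RefSeq windows of the same length it was 34.0%. That last share counts each window by itself and not the best window of a gene, so the shares are not strictly alike. The median ratio was 0.47 for the called chains and 0.42 for those tested and not called. CpG content in these windows thus overlapped widely between called and uncalled chains.

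**Figure D2:**
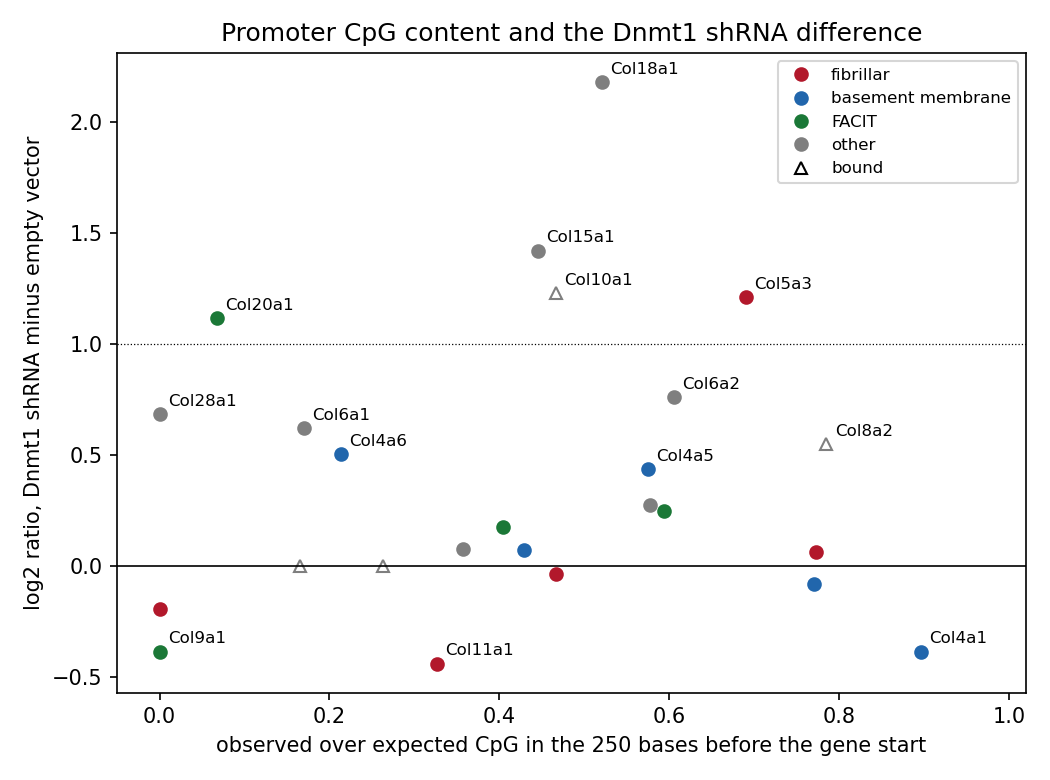
CpG observed-to-expected ratio of the 250 bases before the start (horizontal axis) against the log2 ratio of Dnmt1 shRNA over empty vector (vertical axis), 1 point per tested chain with a window, placed by its CpG-richest window; open triangles are bounds. Called chains lie between 0.07 (Col20a1) and 0.69 (Col5a3), within the wider range of the chains that were not called (0 to 0.90).

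Promoter motifs were counted on both strands of the 38 windows. TATAAA stood in 5 of them (13.2%, against 12.4% of all windows) and CCAAT in 13 (34.2% against 33.8%). The letters GGGCGG, the GC box, stood in 22 (57.9% against 32.7%). That motif is made of G and C alone and holds a CpG. The median CpG count was 10 for the 35 chains, each by its highest window, and 6 over all windows. The part of base content in the GGGCGG share was not tested. None of the 3 motifs contains another. Among the windows printed above alone, TATAAA was in those of Col3a1 and Col10a1. CCAAT and GGGCGG were both in those of Col1a2, Col5a3 and the CpG-richer window of Col18a1. The Col15a1 and Col20a1 windows held none of the 3.

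With the ATM vector, 6 chains were called lower than with the empty vector and 2 higher, among 28 tested. The lower chains were the cartilage collagen Col2a1, the FACIT chains Col9a1, Col14a1 and Col20a1, the hexagonal network chain Col8a1, and Col28a1. The higher chains were Col5a3 and Col15a1. Over all 18463 features tested, 6.36% were called lower and 6.95% higher, against 21.4% and 7.14% of the chains. The median of the 28 chains was 0.29, above the median of all features of 0.05, so the chains called lower stood apart from a set that otherwise lay slightly above 0.

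Col2a1, the main collagen of cartilage fibrils, read 65451 units with the empty vector, 68274 with Dnmt1 shRNA and 17551 with the ATM vector. The array labelled ATM vector alone was low, 3.39-fold below the empty vector (-1.76 ± 0.20), and the ratio kept between -1.87 and -1.76 in the 12 settings. Col9a1, a chain of the type IX collagen that coats type II fibrils, read 2125 units, then 790, then 18.5 by its brighter probe, the last not well above background. It was at least 59.1-fold lower with the ATM vector, a bound that rests on this 1 probe. The second probe read 24.3 units with the empty vector and 32.8 with the ATM vector. It was well above background on neither, so it was not counted there. The brighter probe was also lower with Dnmt1 shRNA, by 1.26 ± 0.20 on the log2 scale (log2 ratio -1.26). The dim second probe, at 24.3 units with the empty vector and 30.5 with Dnmt1 shRNA, brought the gene's mean to -0.39 and under the line. The partners of Col9a1 were near the floor: Col9a2 read 77.2, 77.7 and 81.5 units, and Col9a3 read 16.3, 41.5 and 46.9. Neither partner was called in either comparison.

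The cartilage transcription factor Sox9 read 5284, 6110 and 3889 units, which put it under 2-fold lower with the ATM vector (-0.30). The cartilage proteoglycan Acan stood near the floor at 37.0, 39.9 and 42.5 units. Sox9 made up most of the summed cartilage list, which was 6240 units with the empty vector and 5062 with the ATM vector. Of the other 4 tested cartilage markers, 3 were higher with the ATM vector: Matn3 by 1.17 (called), Comp by 0.93 and Acan by at least 0.31 (a bound). Matn4 averaged 0.21, but its 2 probes went opposite ways, at -1.23 and 1.65. Its summed signal was 455 units with the empty vector and 298 with the ATM vector. The median of the 5 was 0.31. None of the 5 was called lower, and the part of such cells in Col2a1 and Col9a1 was not tested. The windows before both annotated starts of Col9a1 hold 0 CpGs, so they are printed in lower case throughout; they are shown because this chain had the largest bound with the ATM vector.
Col9a1, distal start (chr1:24177360-24177609, plus strand): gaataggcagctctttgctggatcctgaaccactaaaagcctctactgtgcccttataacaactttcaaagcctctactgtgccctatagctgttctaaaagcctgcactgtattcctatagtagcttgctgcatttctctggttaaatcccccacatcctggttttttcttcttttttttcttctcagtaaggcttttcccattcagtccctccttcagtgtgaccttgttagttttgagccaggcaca
Col9a1, internal start (chr1:24194953-24195202, plus strand): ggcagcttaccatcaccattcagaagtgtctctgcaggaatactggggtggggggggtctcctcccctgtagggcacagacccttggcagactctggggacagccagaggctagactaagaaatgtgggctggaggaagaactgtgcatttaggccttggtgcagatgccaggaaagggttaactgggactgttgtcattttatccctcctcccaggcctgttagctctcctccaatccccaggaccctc

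Col14a1, a FACIT chain on the surface of type I fibrils, was read by a pair of probes that agreed in direction and not in size. The brighter read 8745 units with the empty vector, 15218 with Dnmt1 shRNA and 105 with the ATM vector. The other read 704, 1057 and 263 units. Both were lowest with the ATM vector, by -6.24 ± 0.23 and -1.29 ± 0.21 (log2), which averaged to 13.6-fold lower, and both were highest with Dnmt1 shRNA. Col20a1 was 2.25-fold lower with the ATM vector, though its second probe alone (-0.89 ± 0.32) and the normexp correction (-0.68) fell short of 2-fold. Of the FACIT chains tested with the ATM vector, 3 of 6 were thus called lower, 0 higher, and their median was -0.77. Over all features 6.36% were called lower and 6.95% higher, with a median of 0.05. Among the FACIT chains called lower, Col9a1 rests on a bound from 1 probe. Col16a1, the remaining FACIT chain with bright probes, differed by -0.36 over its 3 probes.

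Col8a1, the type VIII chain of vessel wall and of the membrane beneath corneal endothelium, read 5793, 6246 and 2159 units and was 2.44-fold lower with the ATM vector (-1.29 ± 0.20). Its partner Col8a2 was not well above background on either of those arrays. Col28a1, found around Schwann cells, read 100, 143 and 7.02 units, the last not well above background, and was at least 2.79-fold lower. The 5 glial markers summed to 198, 215 and 265 units, with 2, 3 and 2 of them well above background, and their part in the Col28a1 value was not tested.

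Col5a3 was the fibrillar chain that differed most upward with the ATM vector, 4.89-fold (2.29 ± 0.20), and that value lay between 2.23 and 2.30 in the 12 settings. Its partner Col5a1 lay on the other side, at 46626, 43381 and 23962 units (-0.82 ± 0.20), and Col5a2 at 1636, 1825 and 1302 (-0.19), so the 3 chains of type V did not move together. Col15a1 was 3.30-fold higher over its 3 probes. Its one probe detected in both groups gave less, 1.11 ± 0.35, and normexp gave 0.60. Col1a2 (0.66 ± 0.20) and Col3a1 (0.53 ± 0.20) were higher by under 2-fold, and Col1a1 by 0.22 ± 0.20. Col1a2 was the brightest single reading among the chains and dropped to 0.16 after quantile normalization, with Col1a1 at 0.09. It kept its lead over Col1a1 with cyclic loess (0.43 against 0.07), normexp (0.57 against 0.12) and median centring (0.62 against 0.18).

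Chains of the other class that were not called leaned upward with the ATM vector. Col6a1 read 61974 units with the empty vector, 84901 with Dnmt1 shRNA and 101374 with the ATM vector, 0.85 ± 0.20 higher in the last. Col6a2, its type VI partner, read 7510, 11328 and 11413 units and was 0.74 higher. Both type VI chains were thus lowest with the empty vector, and both stayed under 2-fold. Col7a1, which forms the anchoring fibrils of skin, read 6223, 5844 and 8961 units and was 0.66 ± 0.20 higher. Col6a4 was detected by both treated arrays at 30.8 and 54.1 units, against 7.72 with the empty vector, with a bound of 0.65 for the ATM vector. This rested on 1 probe. The other Col6a4 probe read 8.83, 5.34 and 7.62 units and was well above background on no array. Col23a1, a transmembrane collagen, was detected with the ATM vector alone, at 38.7 units against 37.7 with the empty vector, so its detection turned on a small step in signal near the floor.

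**Figure D3:**
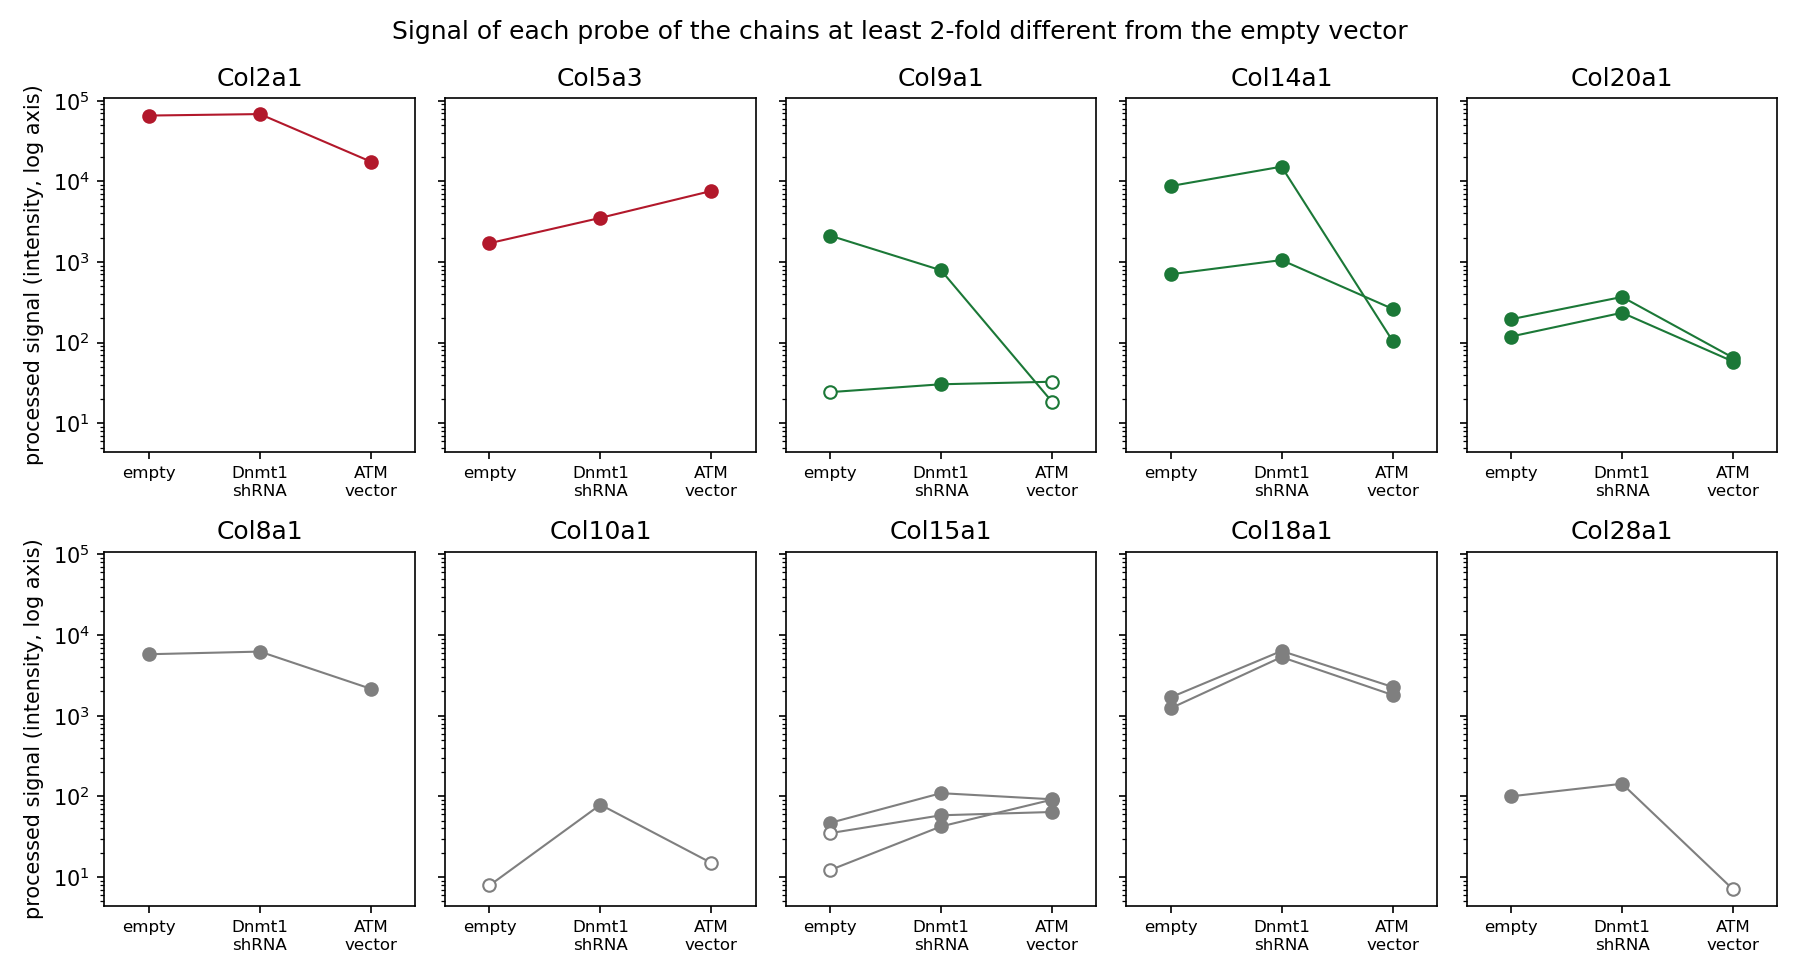
Processed signal (log axis, units of the scanner software) on each of the 3 arrays for the probes of the chains called against the empty vector in either comparison; each line joins the readings of 1 probe, and open circles are not well above background. The brighter probes of Col9a1 (2125, 790 and 18.5 units) and Col14a1 (8745, 15218 and 105) drop on the array labelled ATM vector, and both Col18a1 probes peak on the Dnmt1 shRNA array. The dim second Col9a1 probe does not drop there.

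No basement membrane chain was called in either comparison, 0 of 5 tested, which is near the share of all features called (4.79% higher and 1.81% lower with Dnmt1 shRNA, 6.95% and 6.36% with the ATM vector). Col4a1, at 11262 units with the empty vector, 7685 with Dnmt1 shRNA and 12381 with the ATM vector, differed by -0.39 ± 0.20 and 0.27 ± 0.20. Col4a2, which shares its start region with Col4a1 on chromosome 8, read 10415, 8773 and 11823 units and differed by -0.08 and 0.32. Both were lowest with Dnmt1 shRNA and highest with the ATM vector. The RefSeq windows of this head-to-head pair share 78 bases and their transcripts overlap, so their sequence is not shown. Col4a5 read 6922, 8342 and 7751 units, with differences of 0.43 and 0.30. Its neighbour on the X chromosome, Col4a6, had a bright probe at 6875, 11042 and 9544 units and a dim one at 427, 424 and 481, which disagreed in size with Dnmt1 shRNA (0.85 ± 0.20 and 0.16 ± 0.21) and averaged 0.50. Both X-linked chains were higher with Dnmt1 shRNA while both chromosome 8 chains were lower, each by under 2-fold and, for Col4a2, by less than the scanner error. Col4a4 read 102, 103 and 120 units by its brightest probe, and its neighbouring gene Col4a3 was detected nowhere. With the ATM vector all 5 detected type IV chains lay slightly higher, from 0.27 to 0.46, and none reached 2-fold. Of 6 markers of endothelium, another source of type IV collagen, Pecam1 and Kdr were detected on every array, and both lay higher with the ATM vector too, by 0.85 and 0.60, each under 2-fold. Cdh5, Tek, Emcn and Tie1 were detected on none, the list summed to 4642, 3833 and 6383 units, and its part in the type IV values was not tested.

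**Figure D4:**
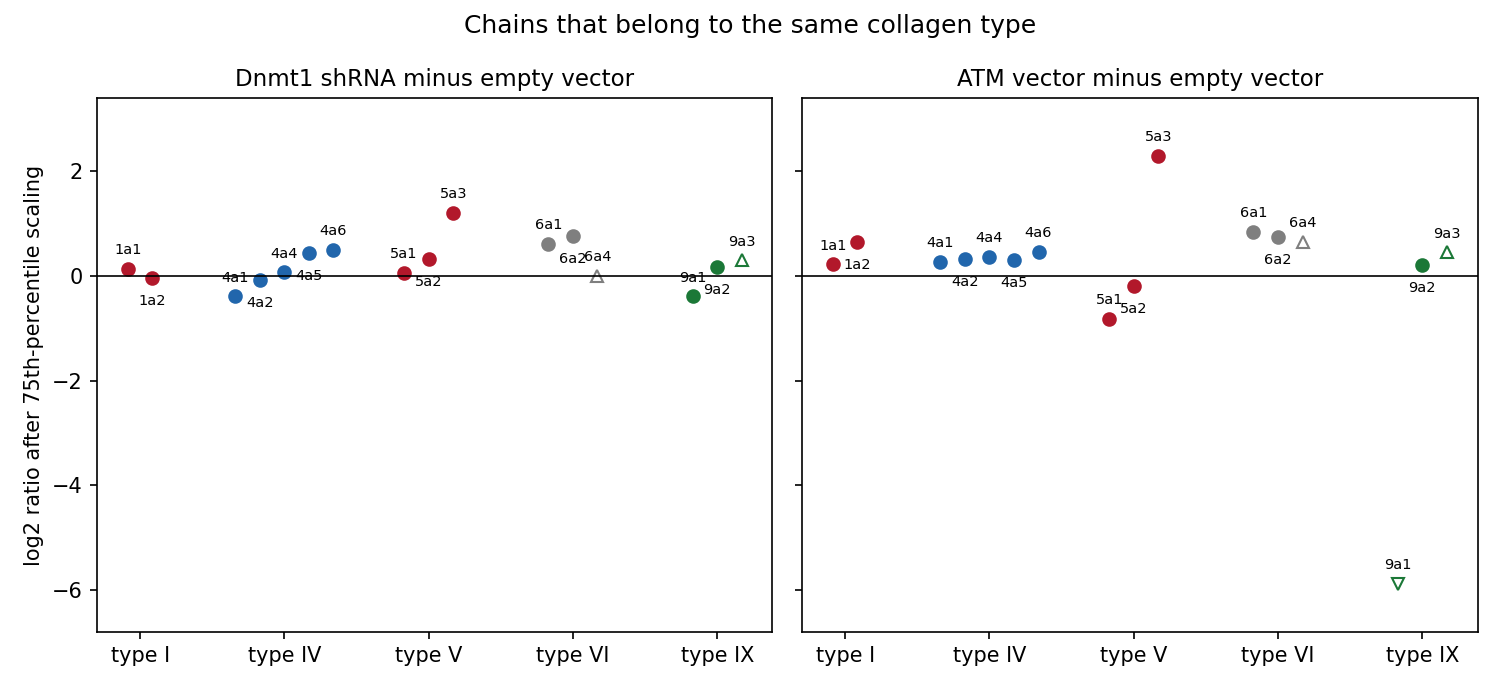
Log2 ratio against the empty vector (vertical axis) of the chains of types I, IV, V, VI and IX, side by side within each type; open triangles are bounds. Chains of types IV and VI lie close together in the ATM comparison, while Col5a3 (2.29) and Col9a1 (-5.89) lie away from their partners.

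Both comparisons used the same empty-vector array, so their values for a chain are not independent and no overlap is counted between them. Read side by side, Col5a3 and Col15a1 were called higher in both, Col20a1 was called higher with Dnmt1 shRNA and lower with the ATM vector, and Col18a1 was called with Dnmt1 shRNA only (2.18 against 0.63; the difference between the 2 arrays is -1.55). Set directly against the Dnmt1 shRNA array, the array labelled ATM vector had 1 chain called higher (Col5a3, 1.08 ± 0.20) and 8 called lower of 32 tested, where 7.35% of 19525 features were called higher and 9.3% lower. The 8 were Col2a1, Col8a1, Col9a1, Col10a1, Col14a1, Col18a1, Col20a1 and Col28a1. Over all features that split moved with scaling, from 1436 higher and 1816 lower to 2112 and 1459 with median centring. The FACIT chains had a median of -0.85, the fibrillar 0.21, the basement membrane 0.07 and the other chains -0.01. The FACIT and other medians include bounds, and a bound takes its sign from the array that detected the chain. Over the chains measured on both arrays alone, the FACIT median was -0.61 and that of the other chains 0.23.

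Genes that make collagen were compared on a list of 39 with a probe, covering hydroxylases, chaperones, export, propeptide cleavage and cross-linking. With Dnmt1 shRNA, 1 of 36 tested was called higher, P3h2, a prolyl 3-hydroxylase (117, 245 and 38.1 units; 2.35-fold), 0 were called lower, and the median was -0.04; that 2.78% lay below the 4.79% of all features. With the ATM vector 3 were called higher and 3 lower, 8.33% each, near the 6.95% and 6.36% of all features, with a median of 0.04. The higher genes were P4ha1, a catalytic subunit of prolyl 4-hydroxylase (2.95-fold), Creb3l1, a transcription factor active on collagen genes (2.68-fold), and Pcolce2, a procollagen C-proteinase enhancer. Pcolce2 read 463, 276 and 6495 units, 15.4-fold higher. The lower genes were P4ha3 (3.74-fold), P3h2 (2.78-fold) and Lox, the lysyl oxidase that cross-links collagen (2.27-fold). The hydroxylase subunits P4ha1 and P4ha3 lay on opposite sides, and each was called by both of its probes, while 1 of the Lox probes alone fell just short at -0.97. The chaperone Serpinh1 differed by 0.44 and was not called.

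**Figure D5:**
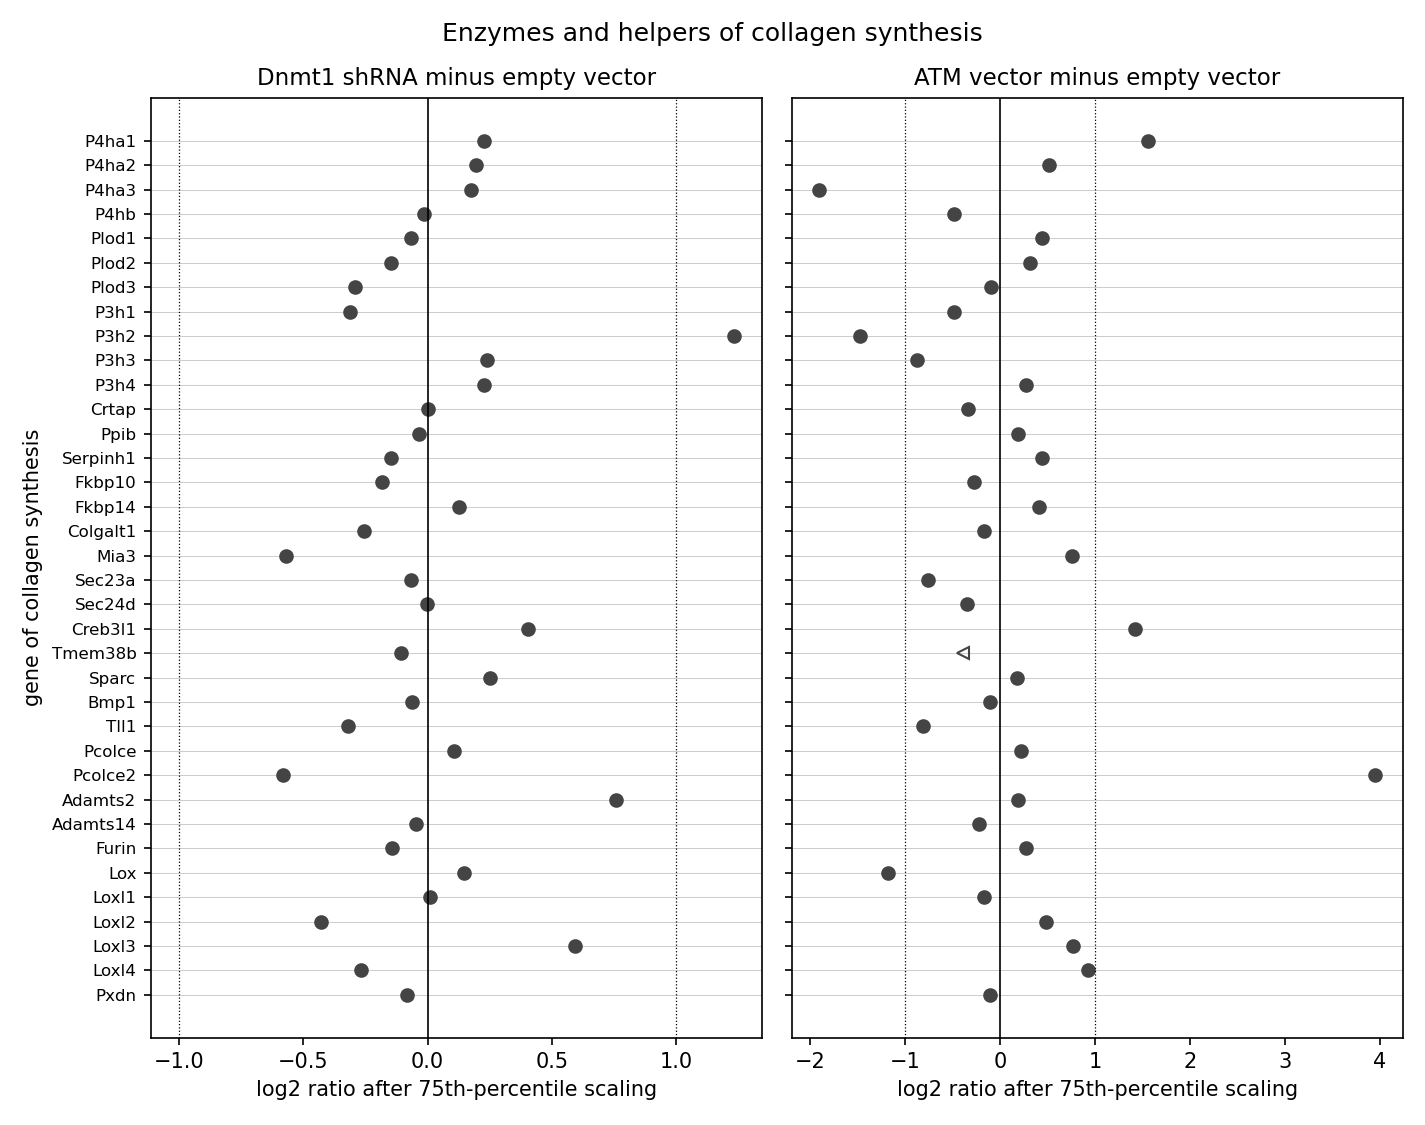
Log2 ratio against the empty vector (horizontal axis, on a different scale in each panel) of the tested genes of collagen synthesis (rows), for Dnmt1 shRNA and the ATM vector; the open triangle is a bound and dotted lines mark 2-fold. Pcolce2 stands highest with the ATM vector at 3.95, and P4ha3 lowest at -1.90, while most of the list lies within 2-fold in both comparisons.

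Of the collagen receptors, 10 of 11 had a probe and 8 were tested. Itga11, the alpha subunit of a collagen-binding integrin of fibroblasts, read 3034, 8648 and 1271 units, so it was 3.20-fold higher with Dnmt1 shRNA and 2.17-fold lower with the ATM vector. Adgrg1, an adhesion receptor that binds type III collagen, read 1440, 1091 and 2899 units and was 2.22-fold higher with the ATM vector. The remaining 7 receptors with Dnmt1 shRNA, and 6 with the ATM vector, were under 2-fold different. With Dnmt1 shRNA 12.5% of the 8 were thus called higher and 0% lower, against 4.79% and 1.81% of all features. With the ATM vector 12.5% were called higher and 12.5% lower, against 6.95% and 6.36%.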

How the data were processed

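Each sample was read by 1 Agilent 1-colour (Cy3) array, with groups taken from the transfection labels. Per the submitters' processing notes, the deposited scanner output came from Agilent Feature Extraction 10.7.3.1. Its processed signal is a linear intensity after background subtraction, per the file headers, and the marks for control, outlier and well-above-background spots, and the signal error, come from the same deposited files. The authors' deposited series matrix repeats these intensity values to within 0.495% of each spot, so it is linear and uncentred.

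Control spots and 167 to 235 outlier spots per array were left out, no spot was saturated, and log2 values were averaged over the spots of a probe. Each array's 75th percentile was then taken off. A gene's ratio is the mean over its probes that at least 1 of the 2 arrays detected, that is, marked well above background. Probes were named through RefSeq accessions without versions (GRCm38.p6): 26412 of 39429 had a symbol. The array design was placed on another build, so no probe coordinates are given. The coordinates printed are those of the RefSeq promoter windows. Named with values were Col1a1, Col1a2, Col3a1, the type IV pairs, every chain called against the empty vector, the member with the largest difference in each class, and the called members of the synthesis and receptor lists; others are examples chosen after their values were seen. The chains, lists and classes were chosen with earlier results of these data known. Code ran in Python 3.11.15, numpy 2.4.6, pandas 2.3.3, matplotlib 3.10.9, R 4.3.3 and limma 3.58.1, and the ratio code was tested on simulated data. No sample had a replicate, so no test was run.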

Additional observations from a re-analysis of the deposited data

How the results depend on the processing

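No called chain changed direction under the alternatives run, though chains near 0 could (Col1a1 from 0.13 to -0.10 with median centring). Of the chains called higher with Dnmt1 shRNA (5 at the main setting), 2 were left after median centring, 3 after quantile normalization, 3 with normexp (offset 50, on median signals), 9 with no filter, 10 with dim signals as measured, 10 at 1.5-fold and 1 at 3-fold. These counts are of 31 chains tested, or 42 with no filter. Over all features, 928 of 19359 were called higher at the main setting. Median centring gave 673, quantile normalization 735 and normexp 571, of 19359 each. With no filter 1965 of 32524 were called higher, and with dim signals as measured 1486 of 19359. At 1.5-fold 1907 and at 3-fold 445 of 19359 were called higher. The count of chains lower (0) became 1 with no filter, with only probes detected on both arrays, and with the brightest probe. In the last 2 this was Col9a1 (-1.26). Over all features, 1139 of 32524, 154 of 17255 and 342 of 19359 were called lower in those settings, in the same order. The median of the chains moved from 0.27 to 0.037 with median centring, where that of all features moved from -0.01 to -0.25. With the ATM vector the count higher (2) became 1 with normexp, 6 with no filter, 4 with dim signals as measured and 8 at 1.5-fold. Of all features, 876, 2229, 1561 and 2939 were called higher in those settings, in the same order. The count lower (6) became 3 at 3-fold, 4 with probes detected on both or on all 3 arrays, 5 with normexp, and 7 with no filter or at 1.5-fold. Of all features, 599 were called lower at 3-fold, 767 with normexp, 2150 with no filter and 2453 at 1.5-fold. With probes detected on both or on all 3 arrays 702 were called lower, of 16624 and 16578. The features tested were otherwise 18463, or 32524 with no filter. Col9a1 was -3.07 with no filter, where Col14a1 (-3.76) was lower; with the brightest probe Col14a1 was -6.24 and the bound of Col9a1 -5.89. Against Dnmt1 shRNA the count higher (1) became 2 with quantile normalization, with no filter and with dim signals as measured, 7 at 1.5-fold and 0 at 3-fold. Of all features, 1789, 2223, 1539, 3481 and 578 were called higher in those settings, of 19525, or 32524 with no filter. The count lower (8) became 5 with probes well above background on both or on all 3 arrays, and 5 at 3-fold. Of all features, 1111 of 17037, 1077 of 16578 and 1008 of 19525 were called lower there. The cause was not tested, apart from alternatives that test fewer probes. Signal over background limits the dim chains: the scanner error with Dnmt1 shRNA was 0.33 (log2) for the brightest Col15a1 probe and 1.45 for Col10a1. The alternative using the array's gene name column was not run, because the files used here hold none. No paired analysis was possible because each group has 1 array. No replicate could be left out.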
